A study of Mus musculus with 36 samples.

Results

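Expression of 10 genes of the Polycomb system was examined in mouse fetal germ cells and gonads exposed to intrauterine hyperglycemia (IUHG). The 10 genes, chosen by symbol, were Max, Mga, Pcgf6, L3mbtl2, E2f6, Rnf2, Cbx2, Ezh2, Eed and Suz12, out of 57126 gene identifiers in the tables of primordial germ cells (PGCs) and 56262 in those of gonads. In the PGC tables, whose positions are on mm39, Max (ENSMUSG00000059436) spans chr12:76984043-77008975, E2f6 (ENSMUSG00000057469) chr12:16860978-16876753, Eed (ENSMUSG00000030619) chr7:89603862-89630191, Suz12 (ENSMUSG00000017548) chr11:79883932-79924949 and Pcgf6 (ENSMUSG00000025050) chr19:47022056-47039343. All 10 were present in both sets of tables and passed the filter on low values in all 15 comparisons, so none was lost. The series held 36 RNA-seq libraries in 12 groups of 3: control and IUHG PGCs at E12.5 (sex labelled as not determined), E13.5 female (E13.5F), E13.5 male (E13.5M), E16.5 female (E16.5F) and E16.5 male (E16.5M), and control and IUHG gonads at E13.5F. IUHG dams received 120 mg/kg streptozotocin (STZ), which destroys pancreatic beta cells, on day 3.5 of pregnancy and were kept when blood glucose exceeded 14 mM on day 6.5. The sources used here state no injection for control dams. The study also had STZ-injected dams without raised glucose, of which no library was analysed here, so within these libraries STZ itself and the hyperglycemia cannot be told apart. All groups are labelled WT. According to the study's methods the PGCs were sorted by an Oct4-EGFP reporter brought in by the sires and each library pooled the PGCs of several fetuses, while the gonads were from wild-type ICR matings and each library pooled several pairs.

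Polycomb group proteins keep genes silent through chromatin. Polycomb repressive complex 2 (PRC2), whose core is the methyltransferase Ezh2 with Eed and Suz12, methylates histone H3 at lysine 27, and Polycomb repressive complex 1 (PRC1), built on the ubiquitin ligase Rnf2 (RING1B), ubiquitinates histone H2A. Cbx2 is a chromodomain subunit of canonical PRC1 that reads the PRC2 mark and is known for its role in gonadal development. The variant PRC1.6 contains Pcgf6 and L3mbtl2 and is brought to DNA by the Max-Mga pair, which binds the E-box CACGTG, and by E2f6, a repressor of the E2F family. PRC1.6 is known to hold germline and meiotic genes silent in somatic and pluripotent cells, and in female PGCs its component Max restrains entry into meiosis.

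Promoter windows from 250 bases upstream to 50 bases downstream of the annotated start (RefSeq, GRCm38.p6) were available for 9 of the 10 genes (Cbx2 was not in the table) and for all of 17 germline genes listed as known PRC1.6 targets. The E-box CACGTG was in the windows of 10 of the 17 target genes and of 8.09% of 27025 genes. The E2F motif TCCCGC, searched on both strands and so also as GCGGGA, was in 9 of the 17 and in 22.1% of all. Both motifs were in 7 of the 17 against 2.32% of all. The motifs can share at most an end letter, and a match describes the sequence only. Stretches of 4 target genes that hold at least 1 motif of each kind are shown first, followed by those of the 2 DNA-binding repressors that carried a motif of their own complex, with motif letters in capitals. A further GCGGGA of Mael, downstream of its start, lies outside the stretch shown.
Mael (chr1:166238872-166238977, minus strand): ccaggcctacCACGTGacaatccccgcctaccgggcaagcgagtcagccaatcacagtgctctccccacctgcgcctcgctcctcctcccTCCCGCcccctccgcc
Hormad1 (chr3:95559572-95559672, plus strand): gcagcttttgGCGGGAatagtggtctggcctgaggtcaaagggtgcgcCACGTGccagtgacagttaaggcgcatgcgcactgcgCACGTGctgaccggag
Sycp3 (chr10:88459430-88459559, plus strand): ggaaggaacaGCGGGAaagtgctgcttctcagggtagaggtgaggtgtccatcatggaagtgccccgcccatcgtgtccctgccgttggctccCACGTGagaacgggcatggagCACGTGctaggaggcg
Ddx4 (chr13:112652324-112652456, minus strand): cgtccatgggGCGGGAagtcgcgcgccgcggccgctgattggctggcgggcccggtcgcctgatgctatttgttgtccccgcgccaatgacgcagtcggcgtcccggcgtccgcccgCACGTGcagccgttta
E2f6 (chr12:16810902-16810927, plus strand): accggtgtgcGCGGGAgatctaacgg
Max (chr12:76962246-76962261, minus strand): tgagcccggtCACGTG
Capitals mark the E-box and the E2F motif in either direction. Among the repressors, the E-box was present only in the window of Max, where it began at position -3 relative to the start, and the E2F motif was in those of E2f6 (position -53), Rnf2 and Suz12. The other windows searched (Mga, Pcgf6, L3mbtl2, Ezh2 and Eed) held neither string.

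The levels of the 10 genes spanned a wide range in PGCs. Levels are given in TPM, a measure corrected for transcript length and library total, so that genes can be set side by side. Max had the lowest mean of the 10 in every PGC group except control E16.5F, where Cbx2 was lower, with means between 2.63 TPM in IUHG E16.5F and 8.16 TPM in control E12.5. Eed reached the highest level of any of the 10, with 252.0, 247.9 and 253.1 TPM in the control and 301.3, 314.6 and 349.0 TPM in the IUHG E16.5M libraries. In the gonads Max stood at 76.8 ± 3.01 TPM (SD, n = 3) in the control and 80.6 ± 3.05 TPM (SD, n = 3) in the IUHG group. PGC and gonad tables were made with different library methods and annotations, so the gap in Max between them was not tested and the means are only set side by side.

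**Figure D1:**
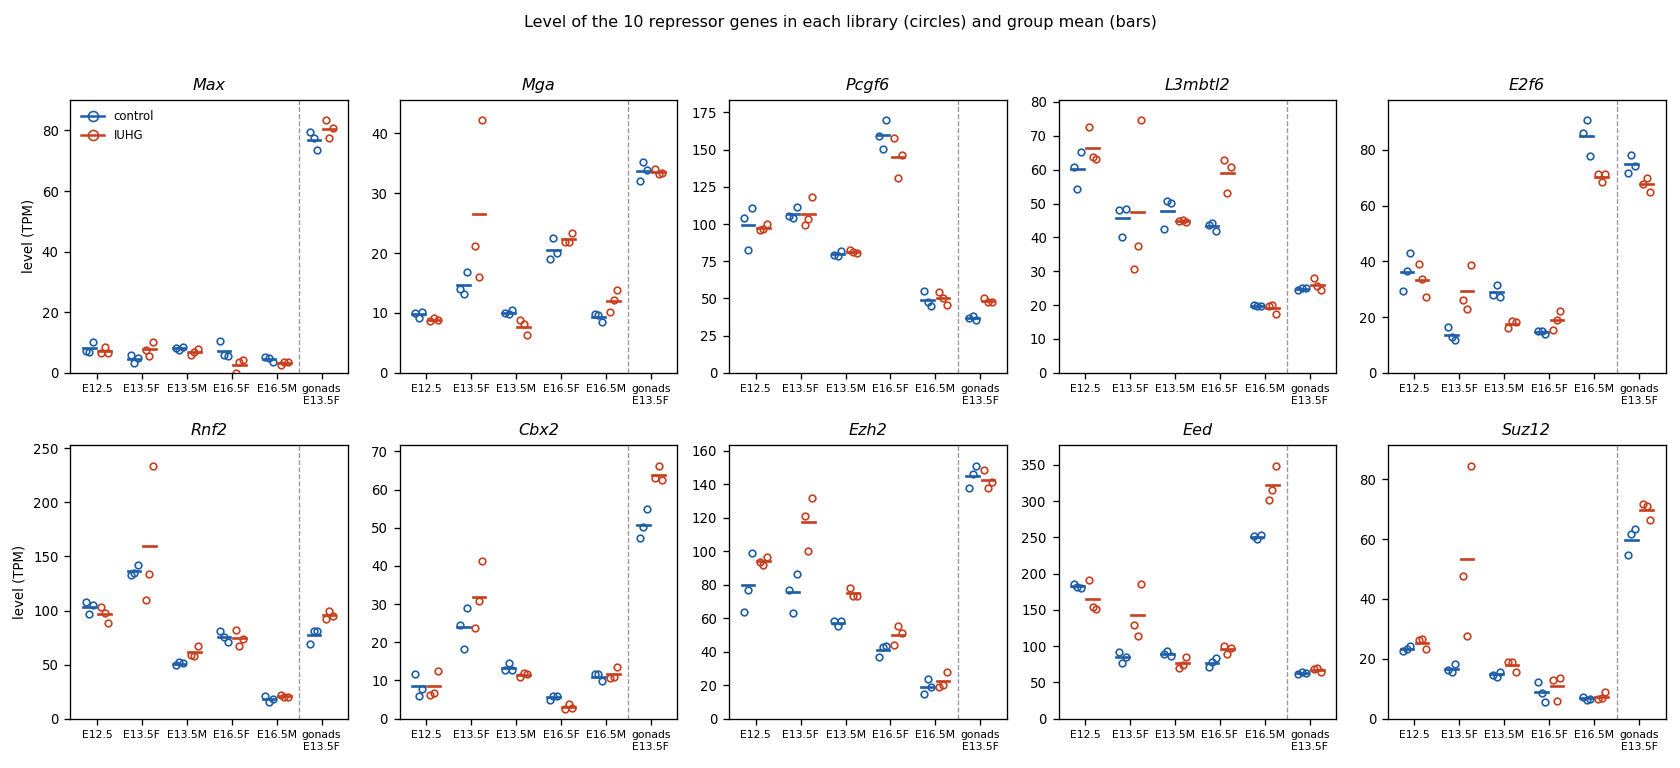
Level of each of the 10 genes (TPM, linear axis from 0, a different range per gene) in every library (open circles) with the group mean (bars), control in blue and IUHG in red, with gonads to the right of the dashed line. Max is low in all PGC groups and near 80 TPM in gonads, Eed and E2f6 are highest in E16.5M, and Pcgf6 is highest in E16.5F.

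Several facts of the libraries touch these values. The third IUHG E13.5F library stood apart from the others of its group (correlation with them 0.927 and 0.934, against 0.976 between those 2), and it held the highest level of all 10 genes in that group. In E16.5F IUHG the correlations were 0.909 to 0.964. The first control gonad library, labelled female, held the Y-linked gene Eif2s3y at 27.5 TPM and a summed level of 5 Sertoli markers of 321 TPM, against 0 and 12.0 to 14.3 TPM in the other 5 gonad libraries. PGC libraries held all 6 germ-cell markers, with sums between 2619 and 9612 TPM. The approximate aligned depth was 3.25 to 8.32 Gb in PGC and 3.89 to 4.95 Gb in gonad libraries, and no read counts were used.

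The first question was how the repressors changed as control PGCs developed from E12.5. Differences are on the log2(TPM + 1) scale from limma, adjusted by Benjamini-Hochberg over all genes tested, and a change was called at an adjusted p under 0.01 with an absolute difference over 1. The sex of the E12.5 libraries is labelled as not determined, so in comparisons with E12.5 stage and sex cannot be told apart. Entering E13.5F, E2f6 and Eed fell and Cbx2 rose. E2f6 went from 29.5, 36.6 and 42.8 TPM at E12.5 to 16.3, 12.8 and 11.7 TPM (difference -1.35, SE 0.18, adjusted p = 0.000132). Eed went from 185, 182 and 181 TPM to 92.0, 76.3 and 84.8 TPM (difference -1.11, SE 0.09, adjusted p = 7.1e-06). The E12.5 and E13.5F libraries did not overlap for either gene. Cbx2 rose from 11.8, 5.80 and 7.87 TPM to 24.4, 18.4 and 29.1 TPM (difference 1.42, SE 0.25, adjusted p = 0.000819). These were 3 of 10 genes, against 25.4% of all genes tested, of which more rose (18.5%) than fell (6.87%), and the median of all genes was shifted by 0.27. The median of the 10 repressors was -0.23, 8 of the 10 passed an adjusted p under 0.05 (57.8% of all genes), and 8 did not overlap between stages (63.3%). The adjusted p of Cbx2 was 0.014 without the filter on low values. The 7 proliferation markers summed to 2343 to 2449 TPM at E12.5 and 1330 to 1452 TPM in E13.5F, and the Sertoli markers to 14.6 to 18.0 TPM and 0.751 to 2.50 TPM, and their part was not tested.

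Entering E13.5M, Eed and Rnf2 fell. Eed was 89.1, 92.6 and 86.0 TPM in the 3 control E13.5M libraries, a difference of -1.03 from E12.5 (SE 0.06, adjusted p = 4.2e-07). Rnf2 fell from 107, 96.3 and 105 TPM at E12.5 to 49.4, 52.1 and 51.4 TPM (difference -1.001, SE 0.07, adjusted p = 1.3e-06). All 3 male libraries lay below all E12.5 libraries for both genes. These were 2 of 10, against 16.2% of all genes. Both differences sat at the fold threshold and fell below it on FPKM, median-of-ratios, quantile and coverage scales, although their adjusted p stayed at or below 4.3e-06 there. Pcgf6 (-0.30), L3mbtl2 (-0.33), Ezh2 (-0.45), Suz12 (-0.62) and Cbx2 (0.64) passed an adjusted p under 0.05 alone, as did 60.9% of all genes. Groups did not overlap for 7 of the 10, against 66.2% of all genes. In control E13.5M libraries the proliferation markers summed to 1353 to 1452 TPM and the Sertoli markers to 80.0 to 87.7 TPM, beside the E12.5 sums given above, and their part was not tested.

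From E13.5 to E16.5 the female and male PGCs were each compared over time. In females Cbx2 fell from a mean of 24.0 ± 5.38 to 5.63 ± 0.557 TPM (SD, n = 3 each, difference -1.89, SE 0.22, adjusted p = 7.7e-05) and was the only one of the 10 called, against 28.2% of all genes. The core subunits Ezh2 (-0.86), Suz12 (-0.91) and Rnf2 (-0.84) were lower and Pcgf6 (0.57) higher at an adjusted p under 0.05 without the fold threshold, a rule met by 53.8% of all genes. In all 6 of the 10 did not overlap, against 61.6% of genes. Pcgf6 rose from 106, 104 and 111 TPM to 159, 151 and 170 TPM, with no overlap between stages. The median of all genes was shifted by 0.31 here, and with median-of-ratios scaling 4 of the 10 were called (Ezh2, Suz12 and Rnf2 beside Cbx2). That scaling called 2529 genes higher and 2388 lower of the 17988 tested, against 3307 and 1760 on the main scale. Proliferation markers summed to 1330 to 1452 TPM in control E13.5F and 603 to 645 TPM in control E16.5F libraries, and interstitial markers to 4.24 to 4.58 TPM and 11.7 to 25.6 TPM, and their part was not tested.

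In males the members split. Rnf2 fell from a mean of 50.9 ± 1.41 to 18.2 ± 2.75 TPM (difference -1.45, SE 0.11, adjusted p = 3.9e-06), Ezh2 from 57.3 ± 1.56 to 19.2 ± 4.53 TPM (difference -1.55, SE 0.15, adjusted p = 1.7e-05), L3mbtl2 by 1.23 and Suz12 by 1.03. Opposite to them, E2f6 rose from 27.9, 31.4 and 27.2 TPM to 85.9, 90.8 and 77.7 TPM (difference 1.52, SE 0.09, adjusted p = 7.8e-07). Eed rose from 86.0 to 92.6 TPM to 247.9 to 253.1 TPM (difference 1.48, SE 0.05, adjusted p = 6.3e-08). Thus Eed and its partners in PRC2, Ezh2 and Suz12, changed in opposite directions. Called were 6 of 10 genes, 2 higher and 4 lower, against 38.3% higher and 12.7% lower, or 51% in all, of the genes tested. An adjusted p under 0.05 was reached by 8 (81.4%) and 9 did not overlap (82.5%), and the median of the 10 was -0.71 where the median of all genes was 0.62. Suz12 fell below the fold threshold on the FPKM scale (-0.97) and without the third control E13.5M or the second control E16.5M library (-0.99). The summed level of 7 proliferation markers was 1353 to 1452 TPM in control E13.5M and 337 to 354 TPM in control E16.5M libraries. Sertoli markers summed to 80.0 to 87.7 TPM and 167 to 181 TPM, blood markers to 3.40 to 45.9 TPM and 165 to 348 TPM, and interstitial markers to 11.8 to 13.6 TPM and 24.8 to 45.9 TPM. The part of these in the changes was not tested.

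The sexes were then compared within stage. At E13.5 Rnf2 was higher in female PGCs (132, 134 and 142 TPM, against 49.4 to 52.1 TPM in males, difference 1.40, SE 0.08, adjusted p = 9.6e-07) and E2f6 was lower (difference -1.04, SE 0.14, adjusted p = 0.000196), 2 of 10 against 29.8% of all genes. An adjusted p under 0.05 was reached by 7 (65.1%) and 8 did not overlap (69.8%). At E16.5 Pcgf6 (difference 1.69, SE 0.10), Rnf2 (2.01, SE 0.13), L3mbtl2 (1.09, SE 0.10), Ezh2 (1.07, SE 0.18) and Mga (1.06, SE 0.14) were higher in females and Eed (-1.69, SE 0.08) and E2f6 (-2.45, SE 0.11) lower, 7 of 10 against 50.9% of all genes. An adjusted p under 0.05 was reached by 8 (72.1%) and 9 did not overlap (74.9%). E2f6 was 14.8, 15.1 and 14.0 TPM in control E16.5F libraries, far below every male value. Of these, L3mbtl2, Ezh2 and Mga lost the fold threshold on the FPKM, median-of-ratios and quantile scales, with the direction kept. Whether the sex difference itself changed between stages was not tested.

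**Figure D2:**
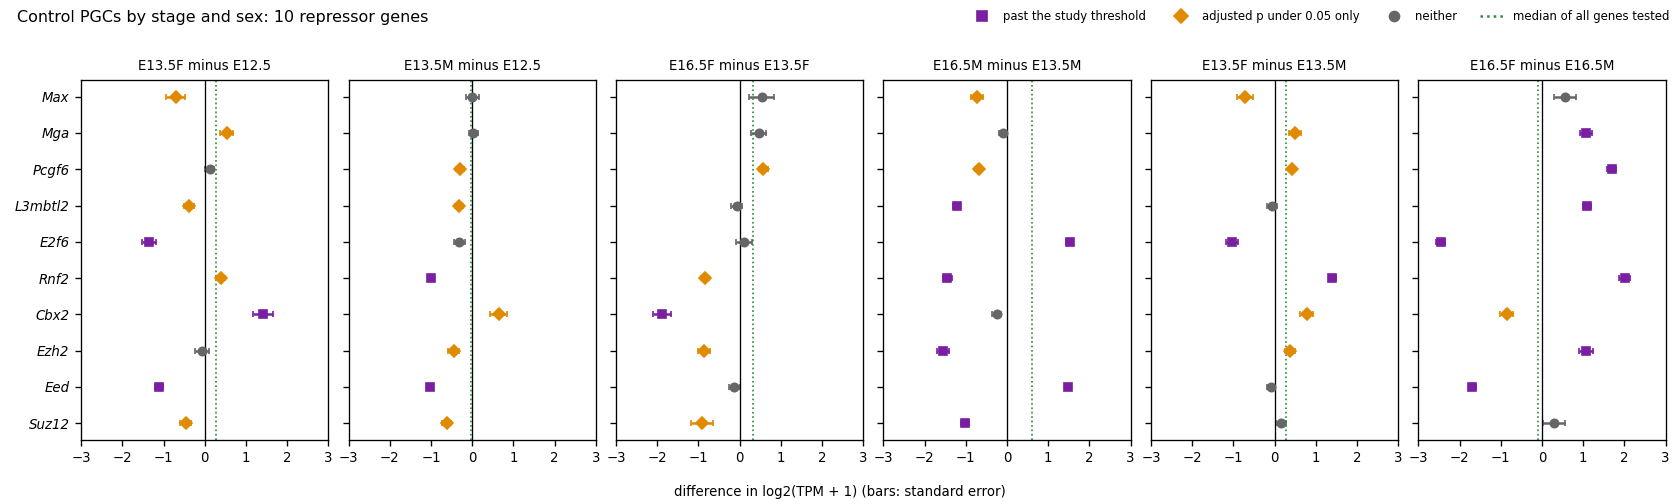
Differences of the 10 genes in log2(TPM + 1) between stages and sexes of control PGCs, with standard errors, coloured by the rule each passed and with the median of all genes tested as a dotted line. In males from E13.5 to E16.5, E2f6 and Eed lie near 1.5 while Rnf2 and Ezh2 lie near -1.5.

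The share of higher calls among all calls depended on the scaling, while no called value of the 10 genes changed sign. It was 73% for E13.5F against E12.5 (49.3% with quantile normalization), 65.3% for E16.5F against E13.5F (47.5%), 75.1% for E16.5M against E13.5M (45.6%) and 68.6% for E13.5F against E13.5M (49.7%). For the change of the IUHG effect from E13.5M to E16.5M it was 59.6% (42.3% with median-of-ratios scaling).

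The question of the study was the effect of IUHG. None of the 10 genes passed the fold and p thresholds in any of the 6 comparisons of IUHG with control, where limma called 0.247% of all genes at E12.5, 0.514% in E13.5F, 3.92% in E13.5M, 0.736% in E16.5F and 0.201% in E16.5M PGCs, and 0.612% in gonads (there at an adjusted p under 0.05 with an absolute difference of at least 1). A count of 0 of 10 is near that background and is no result about these genes. At an unadjusted p under 0.05 the numbers of the 10 were 0, 4, 6, 4, 3 and 5 in that order. The shares of all genes at that p are not given here, so these counts are no result about the 10 genes either. Smaller differences passed an adjusted p under 0.05 alone in 3 of the comparisons and are given below by stage.

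**Figure D3:**
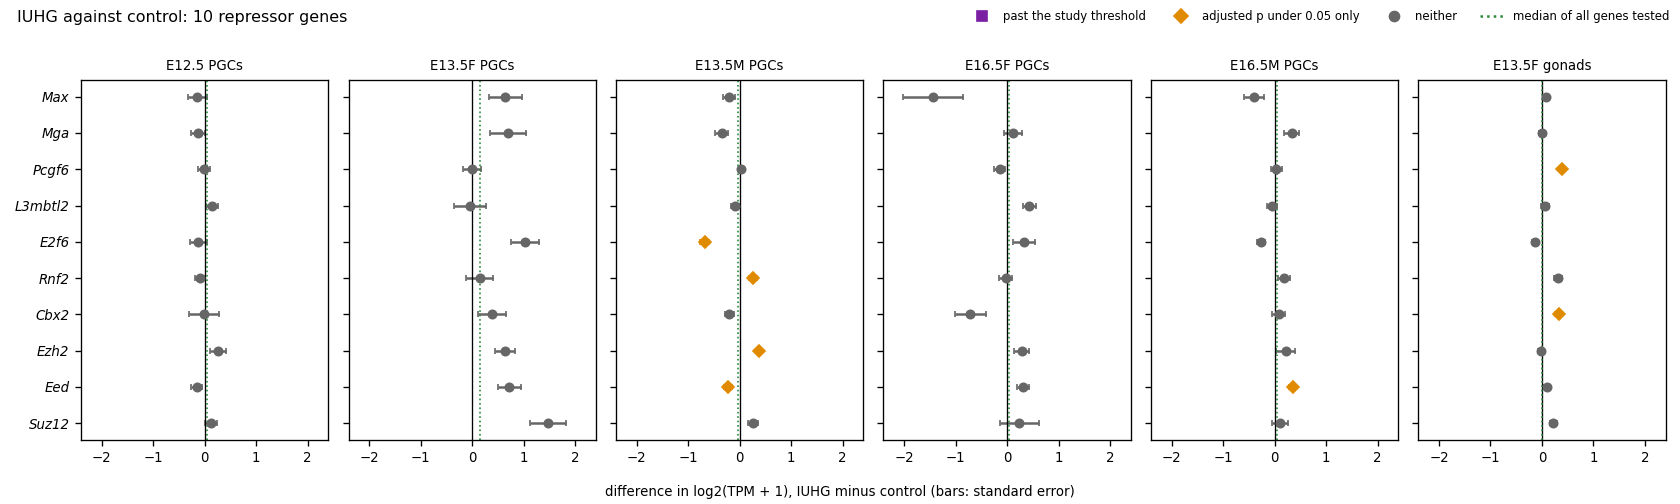
Differences of the 10 genes in log2(TPM + 1), IUHG minus control, in 5 PGC groups and the gonads, with standard errors and the median of all genes tested (dotted line). In E13.5F PGCs Suz12 lies at 1.47 and E2f6 at 1.03, in E16.5F PGCs Max lies at -1.45, and 7 values in E13.5M, E16.5M and gonads carry the mark of an adjusted p under 0.05.

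At E12.5 the IUHG effects were small. They ran from -0.15 (Eed) to 0.26 (Ezh2), with a median of -0.05 beside 0.04 for all genes, and no member passed an adjusted p under 0.05, as 1.58% of genes did. Mga alone did not overlap between groups (8.65 to 9.22 TPM against 9.24 to 10.2 TPM), and 22.4% of all genes did so. The sex of these libraries is labelled as not determined, so an uneven mix of sexes and an effect of IUHG cannot be told apart. Sertoli markers summed to 14.6 to 18.0 TPM in the control and 0.199 to 6.17 TPM in the IUHG libraries. The germ-cell markers summed to 7733 to 8375 TPM and 6811 to 7614 TPM, and interstitial markers to 2.80 to 4.36 TPM and 1.46 to 1.58 TPM. Proliferation markers summed to 2343 to 2449 TPM and 2393 to 2666 TPM, and Pecam1 had means of 127 and 154 TPM. Their part was not tested.

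In E13.5F PGCs 8 of the 10 genes were higher under IUHG, with a median of 0.64 where that of all genes was 0.14, yet none passed an adjusted p under 0.05 (3.05% of all genes did). Suz12, the PRC2 subunit, was 16.2, 15.7 and 18.3 TPM in controls and 47.7, 27.5 and 84.6 TPM under IUHG (difference 1.47, SE 0.36, adjusted p = 0.061). E2f6 was 16.3, 12.8 and 11.7 TPM against 26.1, 23.0 and 38.6 TPM (difference 1.03, SE 0.27, adjusted p = 0.071). Every IUHG library lay above every control for both genes, and likewise for Eed (difference 0.72, SE 0.22, adjusted p = 0.102) and Ezh2 (difference 0.64, SE 0.20, adjusted p = 0.111). These 4 of 10 compare with 33% of all genes without overlap. For Pcgf6 the 95% interval of the difference was -0.38 to 0.38 and for L3mbtl2 -0.74 to 0.66.

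The third IUHG library, which stood apart, bore on these values. Without it Suz12 (difference 1.07, adjusted p = 0.0191), E2f6 (0.82, adjusted p = 0.0320) and Eed (0.52, adjusted p = 0.0402) passed an adjusted p under 0.05, as did 11.6% of all genes, and the median of the 10 was 0.38 beside 0.02 for all genes. The difference of Mga went from 0.70 to 0.31. With all PGC groups in a single fit, which borrows the spread of the other groups, Suz12 and E2f6 passed the fold and p thresholds, as did 8.21% of all genes. The proliferation markers summed to 1330 to 1452 TPM in the control and 1830 to 2418 TPM in the IUHG libraries, and the highest sum was that of the third IUHG library. Of the 5 endothelial markers Pecam1 had means of 62.4 and 141 TPM, and the other 4 had means under 1 TPM in both groups. Their part in the differences was not tested. Markers of Sertoli cells summed to at most 2.5 TPM in both groups.

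In E13.5M PGCs 4 of the 10 passed an adjusted p under 0.05, where 33.3% of all genes did. E2f6 was lower under IUHG, at 16.0, 18.4 and 18.4 TPM against 27.9, 31.4 and 27.2 TPM (difference -0.68, SE 0.09, adjusted p = 0.000393). Ezh2 was higher, at 77.9, 73.1 and 73.5 TPM against 58.1, 55.5 and 58.3 TPM (difference 0.38, SE 0.06, adjusted p = 0.00083). The groups overlapped for neither gene. Rnf2 was higher by 0.26 (SE 0.07, adjusted p = 0.0184) and Eed lower (difference -0.23, SE 0.07, adjusted p = 0.0409). In all, 7 of 10 did not overlap, against 47.1% of all genes, and leaving out single libraries took the adjusted p of Eed to 0.139 and that of Rnf2 to 0.0585, while those of E2f6 and Ezh2 stayed at or below 0.0051. In the fit of all PGC groups, where the spread of the noisier groups enters, only E2f6 of the 4 kept an adjusted p under 0.05 (0.0105). Without the filter on low values neither Rnf2 (0.0694) nor Eed (0.153) kept an adjusted p under 0.05. Proliferation markers summed to 1353 to 1452 TPM in the control and 1497 to 1594 TPM in the IUHG libraries, the 6 germ-cell markers to 8927 to 9612 TPM and 7831 to 8134 TPM, the 6 interstitial markers to 11.8 to 13.6 TPM and 2.64 to 3.11 TPM, and the 6 pregranulosa markers to 14.9 to 19.4 TPM and 9.10 to 10.4 TPM. Of the 5 endothelial markers Pecam1 had means of 49.5 and 77.5 TPM, and the other 4 had means under 1 TPM in both groups. Their part was not tested.

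E2f6 had an effect of 1.03 in females, short of the threshold, and of -0.68 in males at E13.5, and the difference between both effects was tested as an interaction. It was 1.71 (SE 0.27, 95% interval 1.13 to 2.29, adjusted p = 0.00218), 1 of 10 against 3.2% of all genes at an adjusted p under 0.01. Under IUHG the E13.5F and E13.5M means were 29.3 ± 8.22 and 17.6 ± 1.37 TPM, where in controls they were 13.6 ± 2.41 and 28.8 ± 2.26 TPM (SD, n = 3 each), so the order of the sexes was opposite in the groups. Without the third IUHG E13.5F library the E2f6 interaction was 1.498 (adjusted p = 0.000276). It missed the threshold narrowly without the second control E13.5M library (1.65, adjusted p = 0.0102) or the first IUHG E13.5M library (1.65, adjusted p = 0.0106). Eed gave 0.95 (adjusted p = 0.0222), and 9.88% of genes passed an adjusted p under 0.05.

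At E16.5F the IUHG effects had a median of 0.18 (0.04 for all genes), and none of the 10 passed an adjusted p under 0.05, as 5.64% of genes did. Max, the shared partner of Mga and Myc proteins, was 10.5, 5.90 and 5.57 TPM in controls and 0.0748, 3.66 and 4.15 TPM under IUHG (difference -1.45, SE 0.58, adjusted p = 0.18). The first of these IUHG values was next to nothing, and without that library the difference was -0.72 (adjusted p = 0.253). L3mbtl2 was 43.7, 44.2 and 41.9 TPM against 63.0, 53.1 and 60.9 TPM (difference 0.44, SE 0.13, adjusted p = 0.0938). Cbx2 was 4.99, 5.94 and 5.97 TPM against 2.47, 3.85 and 2.91 TPM (difference -0.71, SE 0.30, adjusted p = 0.202). The libraries did not overlap for these 3 genes, nor for Ezh2, Eed and E2f6, 6 of 10 against 28.9% of all genes. Max passed the fold and p thresholds in the fit of all PGC groups (adjusted p = 0.00491), as 8.85% of genes did. Proliferation markers summed to 603 to 645 TPM in control and 732 to 759 TPM in IUHG libraries, and interstitial markers to 11.7 to 25.6 TPM and 36.7 to 48.0 TPM, and their part was not tested.

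In E16.5M PGCs Eed was higher under IUHG, with the TPM values given above (difference 0.35, SE 0.06, adjusted p = 0.0202), the only one of the 10 at an adjusted p under 0.05, which 5.93% of genes passed. Its groups did not overlap, but leaving out single libraries took the adjusted p up to 0.0835 and the fit of all PGC groups to 0.119. E2f6 was 85.9, 90.8 and 77.7 TPM in controls and 71.4, 68.4 and 71.5 TPM under IUHG (difference -0.26, SE 0.08, adjusted p = 0.0803). Mga was 9.88, 9.64 and 8.44 TPM against 10.1, 12.2 and 13.8 TPM (difference 0.33, SE 0.14, adjusted p = 0.191). Without overlap were 3 of 10 genes, against 29.8% of all. The summed Sertoli markers were 167 to 181 TPM in control and 82.1 to 103 TPM in IUHG libraries. Blood markers summed to 165 to 348 TPM and 51.4 to 185 TPM. These libraries thus held RNA of genes listed as markers of other cell types, whose source and part were not tested.

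Eed was lower under IUHG in E13.5M and higher in E16.5M PGCs. The change of the effect between stages was 0.58 (SE 0.10, 95% interval 0.36 to 0.80, adjusted p = 0.00217), 1 of 10 against 8.29% of all genes, and it was not called in the fit of all PGC groups (adjusted p = 0.0658). Mga (0.68, adjusted p = 0.0237) and E2f6 (0.42, adjusted p = 0.0267) passed an adjusted p under 0.05 in the same direction, as did 17.2% of all genes. In females no member passed an adjusted p under 0.01 (1.93% of genes) or under 0.05 (6.17%) for the change between stages, while Max gave -2.09 (SE 0.71, adjusted p = 0.0968) and Cbx2 -1.10 (SE 0.38, adjusted p = 0.101). The comparisons at each stage enter these interactions and share their samples.

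In E13.5F gonads Pcgf6 and Cbx2 were higher under IUHG at an adjusted p under 0.05, which 2.47% of genes passed. Pcgf6 was 37.0, 38.1 and 35.2 TPM in controls and 50.6, 47.5 and 47.3 TPM under IUHG (difference 0.39, SE 0.06, adjusted p = 0.0227). Cbx2 was 47.4, 50.3 and 54.8 TPM against 62.9, 66.3 and 62.6 TPM (difference 0.33, SE 0.07, adjusted p = 0.0455). Neither overlapped between groups, nor did Rnf2 (difference 0.31, SE 0.07, adjusted p = 0.0617), Suz12 (0.22) and E2f6 (-0.14), 5 of 10 against 25.8% of all genes. Without the first control library, which held a Y-linked gene and Sertoli markers, Pcgf6 gave 0.39 (adjusted p = 0.0398) and Cbx2 0.28 (adjusted p = 0.0834), where 1.83% of genes passed. Leaving out any other library put both above 0.05 (0.0609 to 0.0889 for Pcgf6 and 0.0504 to 0.144 for Cbx2). The 6 germ-cell markers summed to 500 to 587 TPM in control and 660 to 817 TPM in IUHG gonads, the 6 interstitial markers to 996 to 1172 TPM and 768 to 844 TPM, and the 5 blood markers to 6295 to 8009 TPM and 4495 to 5299 TPM. In whole gonads a change in the number of a cell type and a change in RNA per cell cannot be told apart.

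The partners of the 10 were read from fixed lists. Of 10 further PRC1.6 partners none passed the fold and p thresholds under IUHG in the PGCs or gonads, and 4 passed an adjusted p under 0.05 in E13.5M, where 33.3% of genes did. These were Hdac1 (0.37), Yaf2 (0.72), Cbx1 (0.31) and Tfdp1 (0.23), the last being the dimer partner of E2F proteins. In control males Cbx1, a heterochromatin protein, fell by 2.77 from E13.5 to E16.5 and the deacetylase Hdac1 by 1.64, 4 of 10 lower in all, against 12.7% of all genes. Of 10 PRC2 partners 1 passed the fold and p thresholds under IUHG: Phf19, a Polycomb-like subunit that guides PRC2 to its targets, rose in E13.5M from 11.5 ± 2.18 to 42.4 ± 0.444 TPM (difference 1.82, SE 0.11, adjusted p = 4.9e-06), where 2.03% of all genes were called higher. In controls Phf19 was 99.3 TPM in E13.5F and fell by 5.09 to 2.16 TPM in E16.5F. Its sex by IUHG interaction at E13.5 was -1.31 (adjusted p = 0.00235), and the stage by IUHG interaction in males called 4 of the 10 higher and Phf19 lower (-1.35), against 8.29% of all genes in either direction. Ezh1, the paralogue of Ezh2, rose by 1.76 from E13.5M to E16.5M as Ezh2 fell by 1.55.

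Among 19 other PRC1 subunits, 9 antagonists of Polycomb marks and 9 genes of the MAX network no gene passed the fold and p thresholds under IUHG in any group (18 or 19, 7 to 9, and 9 were tested). At an adjusted p under 0.05 alone, in E13.5M 6 of the 19 subunits, 3 of the 8 antagonists tested and 1 of the 9 MAX network genes passed, against 33.3% of all genes. The antagonists were all lower, among them the H3K27 demethylase Kdm6b (-0.87, adjusted p = 0.00084). In E13.5F 1 of the 19 subunits passed, Pcgf1 (-1.02, adjusted p = 0.0457), against 3.05% of all genes, and at E12.5 1 of the 9 MAX network genes, Myc (-1.39, adjusted p = 0.0177), against 1.58%. In gonads 1 of the 9 passed, against 2.47%: Mycn, a binding partner of Max, was higher by 0.55 (adjusted p = 0.00286). In control males Mycn fell from 114 ± 6.31 to 2.90 ± 0.473 TPM between E13.5 and E16.5 (difference -4.88, SE 0.11). Of 26 classical Polycomb targets such as Hox genes only 3 to 17 passed the filter in PGCs under the IUHG comparisons and none passed the thresholds there. In control males from E13.5 to E16.5 10 of 18 tested rose and 2 fell, with T going from 0.905 to 34.3 TPM and Hoxc9 from 0.478 to 23.6 TPM, against 38.3% higher and 12.7% lower of all genes. T and Hoxc9 were under 1 TPM at E13.5M and passed the filter only through E16.5M, so they could only rise. The filter thus fixed part of this count in advance. The interactions with IUHG called Pcgf1 (1.33 between stages in females), Mxd4 (-1.06 between sexes) and Kdm6b (1.44 between stages in males).

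The 17 germline genes listed as PRC1.6 targets were read in the same way. This list was chosen with earlier results of these data known. The study itself names several of its genes, such as Stra8 and Sycp3, as lower in IUHG E13.5F PGCs. Its counts stand beside the shares of all genes as a description and are no test of the list. In E13.5F PGCs under IUHG 5 of the 17 fell (0.435% of all genes were called lower) and 9 were lower at an adjusted p under 0.05 (1.99%), with a median of -0.99. Taf7l, a germ-cell TFIID subunit, went from 387 to 50.7 TPM (difference -2.90, SE 0.17, adjusted p = 0.000261), Sycp3, of the synaptonemal complex, from 1445 to 336 TPM (-2.10, SE 0.15, adjusted p = 0.000456), and Tex101 from 961 to 152 TPM (-2.68, SE 0.20, adjusted p = 0.000456). Without the third IUHG library 12 fell, where 2.7% of all genes were called in either direction, against 0.514% with it. Without the first or the third control library 3 fell, and without the second control library or without the filter on low values 1 did. The shares of all genes under these last settings are not given here. The repressors' own effects in these cells are those given above, and in the main test none of them passed an adjusted p under 0.05. Suz12, E2f6, Eed and Ezh2 did not overlap between groups, which held for 33% of all genes. Of these, Suz12, Eed and Ezh2 form the core of PRC2. The groups overlapped for the other 6 repressors, among them Pcgf6 and L3mbtl2 of PRC1.6 and the ligase Rnf2. A link between the repressors and the fall of the target genes was not tested. Of the 7 genes with both motifs, 2 fell (Mael and Sycp3) and 5 were lower at an adjusted p under 0.05 (also Hormad1, Slc25a31 and Sycp1), while Ddx4 gave -0.26 (adjusted p = 0.572) and Stag3 -0.02 (adjusted p = 0.979). Of the 5 genes with neither motif, 2 fell (Tex101 and Stra8) and 3 were lower at an adjusted p under 0.05 (also Zcwpw1).

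In E13.5M PGCs Stra8, which is needed for meiotic entry, rose from 11.1 to 149 TPM (difference 3.63, SE 0.14, adjusted p = 2.7e-07) and Meioc from 1.72 to 7.60 TPM (1.67), while Tdrd1 fell (-1.48). These were 2 of 17 higher and 1 lower, against 2.03% and 1.89% of all genes. In E16.5F Tdrd1 fell (-1.24, adjusted p = 0.00817), 1 of 17 against 0.533% of all genes called lower, and 7 of 17 were higher at an adjusted p under 0.05 (2.56%). The call of Tdrd1 was lost on leaving out any of the 6 libraries. In E16.5M and in gonads none of 17 passed the thresholds, and in gonads none passed an adjusted p under 0.05. The sex by IUHG interaction at E13.5 called 6 of 17 lower (2% of all genes), with Stra8 at -5.75, and the stage by IUHG interaction in females 8 of 17 higher (1.35%). In controls 14 of 17 rose from E12.5 to E13.5F (18.5% of all genes), with Stra8 from 12.3 to 1832 TPM, and 15 of 17 were higher in E13.5F than in E13.5M PGCs (20.4%).

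**Figure D4:**
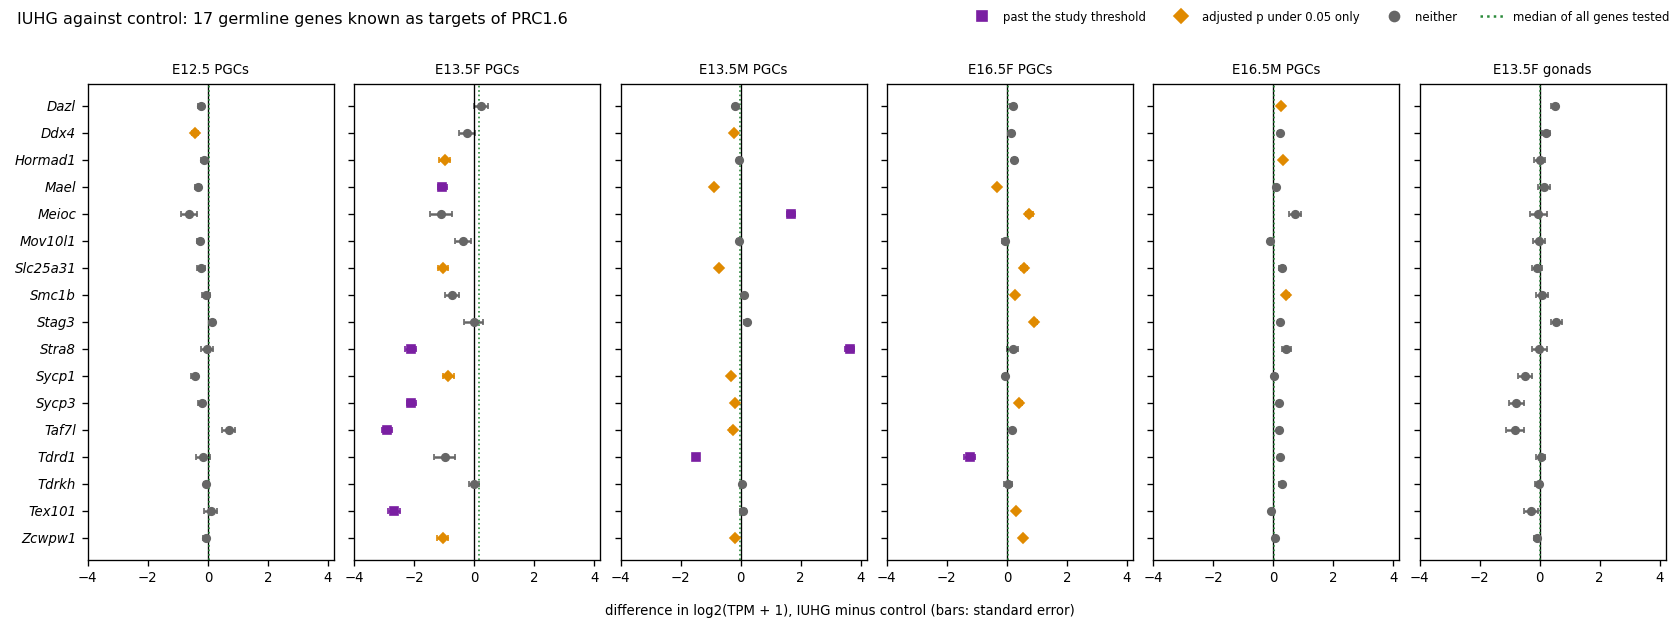
Differences of 17 known germline targets of PRC1.6 in log2(TPM + 1), IUHG minus control, in 5 PGC groups and the gonads, with standard errors and the median of all genes tested (dotted line). In E13.5F PGCs 16 of the 17 lie below 0, and in E13.5M PGCs Stra8 lies at 3.63.

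Across the 30 PGC libraries, E2f6 and Eed had the most similar profiles among the 10 (Pearson r of log2(TPM + 1) 0.920), followed by Rnf2 and Ezh2 (0.876) and Ezh2 and Suz12 (0.853), whereas Pcgf6 and E2f6 ran opposite (-0.806). Among 11846 other genes, the profile most like that of E2f6 was that of Kdm1a (0.9498), of Pcgf6 Nek4 (0.982), of Rnf2 Lrrc40 (0.982), of Ezh2 Usp1 (0.973), of Eed Gnb1 (0.97495), of Mga Smg1 (0.972), of L3mbtl2 Lgr4 (0.963), of Suz12 Tnpo1 (0.946), of Cbx2 Gtf2i (0.912) and of Max Shc1 (0.825). These correlations are descriptions with no test, since the libraries share stages and sexes.

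In order of control levels, E2f6 in E16.5M stood above E12.5, which overlapped E13.5M, and E16.5F and E13.5F overlapped at the bottom. Rnf2 separated all 5 control groups, from 136 TPM in E13.5F through E12.5, E16.5F and E13.5M to 18.2 TPM in E16.5M. Pcgf6 ran from 160 TPM in E16.5F, above overlapping E13.5F and E12.5, to 79.6 TPM in E13.5M and 49.0 TPM in E16.5M. Suz12 was highest at E12.5 (23.3 TPM) and lowest in the E16.5 groups, which overlapped. For Max every pair of neighbouring control groups overlapped.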

How the data were processed

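PGC and gonad RNA-seq libraries were analysed from the deposited StringTie gene tables, 1 per library. TPM and FPKM, normalised for length and library total, and coverage, the mean read coverage per base (a signal), were computed by the authors before deposit. Labels name Trim Galore, STAR, featureCounts and DESeq2, without versions, and mm39. Of gonad genes 47.9% shared a start or end with GRCm38, whereas the methods give mm9, so no gonad position is printed. The authors' read counts were not used here. Where gene identifiers shared a symbol, the one with the highest mean TPM was read for that symbol. The others (233 in PGC, 770 in gonad tables) were not read by symbol but stayed in the fits and in the shares of all genes.

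Differences were tested by limma 3.58.1 in R 4.3.3, two-sided, on log2(TPM + 1) for genes with a mean of at least 1 TPM in a compared group, with Benjamini-Hochberg adjustment over all of them. Fold changes on this scale understate low genes. Calls used an adjusted p under 0.01 with an absolute difference over 1 in PGCs, in gonads 0.05 and a difference of at least 1, and for interactions 0.01 alone. For PGCs the study's methods state a p under 0.01 without naming an adjustment, so the calls here are not the study's own. P-values measure the spread between 3 libraries of pooled fetuses. On simulated data with 200 genes changed by 2 on the log2 scale, 46.5% (stage by IUHG interaction in females) to 100% (gonads) were recovered, and 55.0% for IUHG in E13.5F. The 10 genes and all lists were chosen with earlier results of these data known. Named were all 10 genes, members of the lists past a threshold, and the genes with the most similar profile. Alternatives were FPKM, coverage scaled to a fixed total (added after seeing the data), median-of-ratios and quantile scaling, a smaller pseudocount (0.1), keeping all genes, a fit of all PGC groups, a replicate block and leaving out each library. Sequences were read from RefSeq, GRCm38.p6.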

Additional observations from a re-analysis of the deposited data

Results flagged for a closer look

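The IUHG effect on E2f6 differed between the sexes at E13.5, by 1.71 on the log2(TPM + 1) scale (SE 0.27, adjusted p = 0.00218 by limma), with an effect of 1.03 in female PGCs (adjusted p = 0.071) and of -0.68 in male PGCs (adjusted p = 0.000393). The IUHG effect on Eed differed between E13.5M and E16.5M PGCs, by 0.58 (SE 0.10, adjusted p = 0.00217 by limma). Eed was lower under IUHG at the earlier and higher at the later stage. The difference was not called in the limma fit of all PGC groups (adjusted p = 0.0658). At each stage the effect of IUHG on Eed lost an adjusted p under 0.05 on leaving out single libraries.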

How the results depend on the processing

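No value of the 10 genes that was called changed direction under any alternative, and the causes of the following changes were not tested. With all PGC groups in one fit, 2 of the 10 were called for IUHG in E13.5F (8.21% of all genes) and 1 in E16.5F (8.85%). That fit also called 2 for the sex by IUHG interaction, 1 for the stage interaction in females and 0 for that in males. At an adjusted p under 0.05 with no fold threshold, 4 were called for IUHG in E13.5M (33.3% of all genes), 1 in E16.5M (5.93%) and 2 in gonads (2.47%). Between control groups that rule called 8 for E13.5F against E12.5 (57.8%) and 7 for E13.5M against E12.5 (60.9%). It called 5 for E16.5F against E13.5F (53.8%) and 7 for E13.5F against E13.5M (65.1%). For the sex interaction it called 2 (9.88%) and for the stage interaction in males 3 (17.2%). FPKM, median-of-ratios scaling, quantile normalization and coverage each gave 0 for E13.5M against E12.5. Median-of-ratios scaling gave 4 and quantile normalization 3 for E16.5F against E13.5F, and FPKM and quantile normalization each gave 4 for E16.5F against E16.5M. Leaving out single libraries gave 1 to 2 for E13.5M against E12.5, for E16.5F against E13.5F and for E13.5F against E13.5M, and 0 to 3 for the sex interaction. Where no share of all genes stands beside a count in this paragraph, the count is no result about these genes. The replicate numbers did not pair the samples, since in no comparison of 2 groups was every correlation of same-numbered libraries over 0.1. A replicate block changed no count of calls past the thresholds used here, which stayed at 0 for IUHG in every group. Under that block the adjusted p was 0.0630 for Pcgf6 and 0.0890 for Cbx2 in gonads. Depth was known only as coverage, which limits statements on genes at a few TPM, such as Max in PGCs.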
